A study of Mus musculus with 2 samples.

Results

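B cell nuclei were studied in single-nucleus RNA sequencing of whole mouse colon after chronic colitis. They numbered 237 of the 9586 nuclei that passed the filter, 85 of 4884 in the WT library and 152 of 4702 in the KO library. A nucleus was taken as a B cell nucleus when at least 4 of 9 markers were detected (Pax5, Bank1, Ebf1, Ikzf3, Ripor2, Aff3, Bach2, Ms4a1 and Cd79b), Pax5 or Bank1 among them, and when the markers made up at least 0.3% of its UMIs (unique molecular identifiers, which count RNA molecules). The nuclei were thus selected on these values, and the levels of the 9 genes describe the choice and carry no test. Levels are given as CPM, the UMIs of a gene scaled to a total of 1000000 UMIs over the nuclei in question.

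WT littermates and Ncr1cre+ Hif-1αfl+/fl+ mice (KO) were compared. In the KO, a Cre recombinase under the Ncr1 (NKp46) promoter deletes HIF-1α in innate lymphoid cells and NK cells that express NKp46, so that the B cells themselves are not the target of the deletion. Both groups were 8 to 12 weeks old and went through 4 cycles of 2% dextran sodium sulfate (DSS) in drinking water, each with 3 d of DSS and 4 d without, and the colon was taken on day 28. Each genotype gave 1 library, pooled from 3 animals. With 1 library per genotype there was no replicate and no test between genotypes was possible. Intervals below are 95% intervals for counting error only, exact except that of the ratio of shares of nuclei, which is a normal approximation on the log scale, and differences between the animals, the pools and the library preparations cannot be told apart from the genotype.

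B cells recognise antigen through the B cell receptor, a membrane immunoglobulin with the signalling chains CD79A and CD79B. Pax5 and Ebf1 are the transcription factors that hold the B cell identity, and they are shut off or reduced when a B cell becomes an antibody-secreting plasma cell. In the colon, B cells are concentrated in lymphoid follicles and patches, where activated cells form germinal centres that divide, mutate their immunoglobulin genes and switch class, while most IgA comes from plasma cells in the lamina propria.

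The WT library was the shallower of both. The median nucleus held 2058.5 UMIs in WT and 4197 in KO over all filtered nuclei, and 1547 in WT and 2065.5 in KO over B cell nuclei. Depth among the B cell nuclei ran from 1214 to 7319 UMIs in WT and from 953 to 16232 in KO, and they held 166192 and 379632 UMIs in all. Of the barcodes, 3 occurred in both libraries and 0 of these belonged to a B cell nucleus. The transcripts Gm42418 and AY036118, which lie at a ribosomal RNA locus, made up 14.4% of the UMIs of WT B cell nuclei and 5.34% of those of KO B cell nuclei. In all other nuclei their shares were 9.12% and 3.13%.

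**Figure D1:**
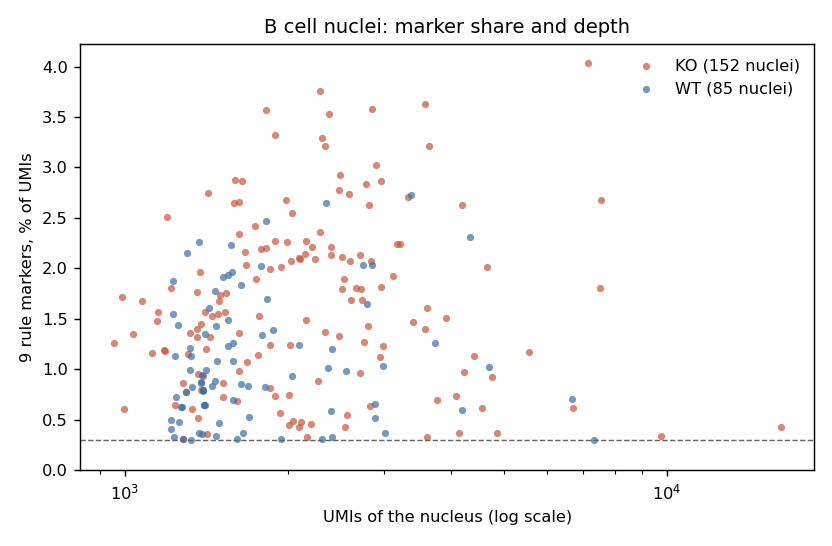
Share of UMIs in the 9 rule markers (y axis, percent) against the UMIs of the nucleus (x axis, log scale), each point 1 B cell nucleus, with a dashed line at the 0.3% limit. The WT nuclei crowd toward low depth and toward the limit, with a median share of 0.939% against 1.57% in KO.

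That several markers came together in each nucleus was set by the rule, and the WT nuclei stood closer to its limits. In WT, 24 nuclei had just 4 markers, 22 had 5, 24 had 6, 11 had 7 and 4 had 8. In KO, 16 had 4 markers, 19 had 5, 37 had 6, 47 had 7, 30 had 8 and 3 had all 9. The lowest marker shares inside the limit were 0.301% in WT and 0.313% in KO, and the highest shares of nuclei with enough markers but outside it were 0.299% and 0.291%. In WT, 23 nuclei failed on the share alone and in KO 16. A further 17 WT and 7 KO nuclei had the share and Pax5 or Bank1, but 3 markers.

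B cell nuclei made up 1.74% of WT nuclei (1.39 to 2.15) and 3.23% of KO nuclei (2.75 to 3.78), a log2 ratio of 0.89 (0.51 to 1.27). When every nucleus was thinned to 1000 UMIs and the rule applied again, 63 WT nuclei (1.29%) and 119 KO nuclei (2.57%) remained. The KO share was thus higher at equal depth too, by a log2 ratio of 0.99.

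Counting the transcripts of the whole library gave another measure, weighted by UMIs and not by nuclei. Pax5 stood at 31.1 CPM over all WT nuclei and 24.7 over all KO nuclei, a log2 ratio of -0.33 (-0.52 to -0.15). For Cd22, an inhibitory co-receptor of B cells, the library-wide levels were 9.50 and 5.08 CPM, a log2 ratio of -0.90 (-1.28 to -0.53). Bank1, a scaffold of B cell receptor signalling, did not differ beyond counting error, with 62.3 and 62.6 CPM. Ms4a1, encoding CD20, was higher in KO, with 3.85 and 5.85 CPM (log2 0.60, 0.13 to 1.10). Among 13 genes examined, 5 had intervals below 0 (Pax5, Cd22, Ebf1, Aff3 and Pou2af1), 1 above 0 (Ms4a1) and 7 spanned 0, so that most did not follow the share of nuclei. The measures are unlike, since deeper nuclei weigh more in library-wide CPM. B cell nuclei held 166192 of 13259430 UMIs in WT and 379632 of 23605502 in KO. The part of depth in these ratios was not tested. Per 1000 nuclei, 12 of the 13 had more UMIs in KO, as Pax5 did (84.6 UMIs in WT and 124 in KO), and Cd22 was level (25.8 and 25.5), beside the greater depth of the KO nuclei.

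The chosen nuclei also held different parts of the UMIs of these genes in each library. B cell nuclei held 45.0% of all Pax5 UMIs in WT and 81.0% in KO, 36.5% and 75% of the Cd22 UMIs, and 24.5% and 65.0% of the Bank1 UMIs. All 13 genes examined had the lower share in WT. Pax5 was found in 4.15% of the other WT nuclei and in 1.89% of the other KO nuclei, although the former were shallower (medians 2070 and 4282 UMIs). At 1000 UMIs each, the figures for Pax5 were 2.21% and 0.690%. A larger part of the UMIs of these 13 genes therefore lay outside the chosen nuclei in WT. Some of the genes are not confined to B cells: in T cell-like KO nuclei, described below, Aff3 had 1181 CPM and Pax5 63.5. Missed B cell nuclei, free RNA and RNA of other cells cannot be told apart here, and the part of each in the share of nuclei was not tested.

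**Figure D2:**
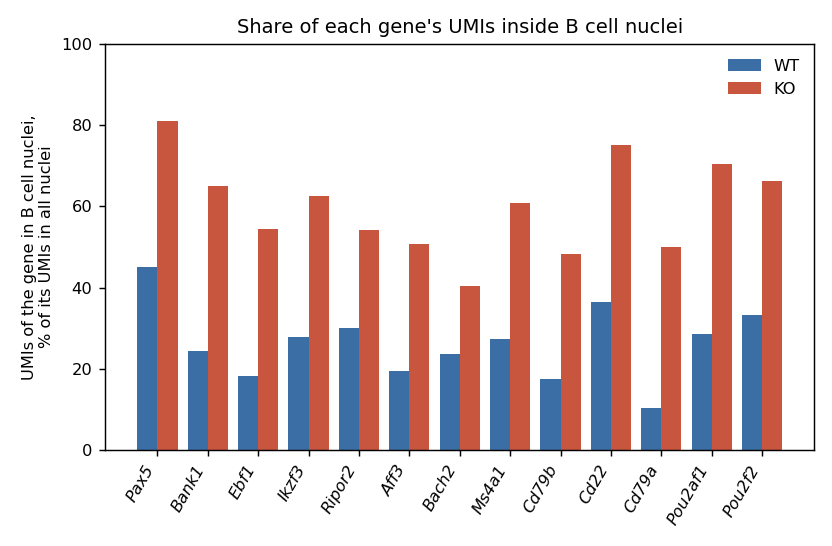
UMIs of each gene found in B cell nuclei as a percentage of its UMIs in all filtered nuclei (y axis), for 9 rule genes and 4 other B cell genes in WT and KO. Every WT bar is the shorter of its pair, as for Pax5 with 45.0% against 81.0%.

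Genes outside the rule, B cell genes among them, were higher in these nuclei than in all other nuclei. The comparison with T cell-like and myeloid-like nuclei, given below, set few of them apart. Of 2539 genes with at least 50 UMIs in the B cell nuclei of both libraries together, rule genes left out, 134 (5.28%) were more than 4-fold above all other nuclei in both libraries, on the scale of CPM plus 10. They held 16 of the 19 measured genes of a 27-gene B cell identity list and 14 of the 18 measured B cell receptor signalling genes. Since the nuclei were picked for B cell genes, these counts describe the picked nuclei and test nothing. Because nuclear UMIs grow with the length of a gene, levels are compared between nuclei and not between genes.

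The 10 genes highest over other nuclei were, in order, Dock2, Rhoh, Prkcb, Wdfy4, Ppp1r16b, Chst3, Pou2f2, Cd22, Ikzf1 and St6galnac3. Dock2, an activator of Rac that drives lymphocyte migration, had 1294 CPM in WT B cell nuclei and 1459 in KO B cell nuclei, against 43.2 and 23.9 elsewhere. Chst3, a chondroitin sulfotransferase, had 247 and 411 against 3.59 and 1.08. Cd22 had 277 (203 to 369) and 237 (191 to 291) against 6.11 and 1.29. Pou2f2, encoding the octamer factor Oct-2, had 325 and 445 against 8.25 and 3.70, and its coactivator Pou2af1 had 271 and 332 against 8.63 and 2.28. The 5 genes named here were thus higher in both libraries by more than an order of magnitude. The complement receptor Cr2 (259 and 321 against 17.0 and 9.99) and the inhibitory receptor Btla (235 and 313 against 13.1 and 4.26) went the same way. The receptor chains themselves were sparse: Cd79a had 3 UMIs in WT and 17 in KO, and Cd79b had 4 and 15.

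**Figure D3:**
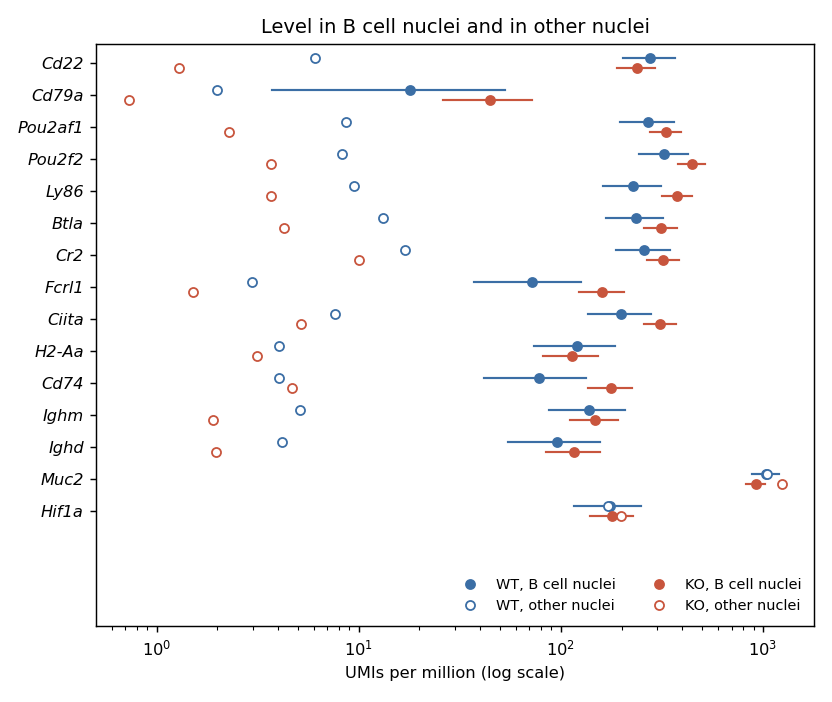
CPM (x axis, log scale) of 15 genes in B cell nuclei (filled points with 95% counting intervals) and in all other nuclei (open points), WT blue and KO red. The 13 B cell genes lie far right of their open points, while Muc2 and Hif1a do not.

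Promoter windows of these genes, 250 bases before to 50 after the start site, were taken from RefSeq (GRCm38.p6). Windows were matched for 35 of 43 genes, the rule genes, the top 10 and the identity list together, and among those not matched were Ikzf3, Ms4a1, Cd79b, Blk, Cxcr5, Ets1 and Arhgap24. The octamer ATGCAAAT, the site of Oct-2, was present on either strand in 2 of the 35 (Prkcb and Vpreb3), which is 2 of their 44 windows or 4.55%, beside 1.74% of all 32851 windows. The EBF-type motif CCCNNGGGA was present in 5 (Cd22, Cd55, Chst3, Ppp1r16b and Ripor2), each in 1 window, 11.4% of the 44, beside 6.56% of all windows. Matches of this motif on both strands can overlap, as they do in Cd22. Matches are a description of letters. The windows of Cd22 (chr7:30878979-30879278, minus strand), Chst3 (chr10:60219211-60219510, minus strand) and Prkcb (chr7:122288875-122289174, plus strand) are given as examples of the 10 highest genes that hold a motif, which is in capitals. Ppp1r16b, also among the 10, holds the EBF-type motif too and is not printed.
Cd22: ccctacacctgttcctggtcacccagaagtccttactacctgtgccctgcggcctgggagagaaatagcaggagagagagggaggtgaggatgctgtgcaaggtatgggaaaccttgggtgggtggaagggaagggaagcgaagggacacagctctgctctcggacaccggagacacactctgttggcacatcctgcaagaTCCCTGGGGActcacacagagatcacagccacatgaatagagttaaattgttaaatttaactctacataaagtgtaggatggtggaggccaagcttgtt
Chst3: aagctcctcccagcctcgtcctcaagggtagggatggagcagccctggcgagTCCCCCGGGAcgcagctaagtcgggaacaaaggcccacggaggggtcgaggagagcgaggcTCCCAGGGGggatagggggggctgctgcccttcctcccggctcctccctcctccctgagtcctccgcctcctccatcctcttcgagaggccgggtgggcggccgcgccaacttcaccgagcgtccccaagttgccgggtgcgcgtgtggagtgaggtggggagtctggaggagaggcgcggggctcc
Prkcb: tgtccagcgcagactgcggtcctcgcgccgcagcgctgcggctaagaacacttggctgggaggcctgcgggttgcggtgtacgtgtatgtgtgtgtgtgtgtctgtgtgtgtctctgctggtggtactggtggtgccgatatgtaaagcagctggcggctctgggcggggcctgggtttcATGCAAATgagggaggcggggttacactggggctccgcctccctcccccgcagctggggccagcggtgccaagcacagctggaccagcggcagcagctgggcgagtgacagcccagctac

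Genes of other cell types were looked at as well. The T cell CD3 genes Cd3e, Cd3g and Cd3d had 0 UMIs in both libraries, the macrophage gene Adgre1 had 0 and Csf1r 0 in WT and 1 in KO. Of the 12 T cell markers, 4 were at 0 in each library and the most abundant was Skap1 in both, with 14 and 55 UMIs. Their summed level was 385 CPM in WT B cell nuclei and 340 in KO, against 161 and 166 in other nuclei. The 12 myeloid markers summed to 144 and 161 CPM, against 132 and 220 elsewhere, with Sirpa the most abundant in WT and Mertk in KO and with 3 and 4 markers at 0. Pecam1, best known from endothelium, was high in B cell nuclei (355 and 437 against 36.0 and 19.5), whereas the endothelial Kdr had 1 and 4 UMIs. Muc2, the goblet cell mucin, was as high in WT B cell nuclei (1035) as elsewhere in WT (1054) and stood at 922 and 1241 in KO. A Muc2 UMI was seen in 64.7% of WT and 83.6% of KO B cell nuclei, beside 70.1% and 90.5% of all others. The 6 goblet markers together had 3538 and 2961 CPM against 3387 and 4074 elsewhere, and the 6 absorptive markers 620 and 1027 against 1317 and 2222. Of the 588 goblet UMIs in WT, 283 lay in 1 nucleus, and without it the WT level was 1912 CPM. Goblet cell RNA was thus present in these nuclei below its level in other nuclei once that nucleus was left out, and its part in the other values was not tested. In WT, 1 nucleus carried 67 of the 172 Muc2 UMIs.

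Few nuclei passed a plasma cell-like gate. It found 1 nucleus in WT and 0 in KO outside the B cell nuclei, so that no comparison could be made. An Igha UMI was seen in 298 other WT nuclei and 236 other KO nuclei, and whether these were plasma cells or held free RNA was not tested. In B cell nuclei, Tnfrsf17 (BCMA) had 0 UMIs in both libraries, Mzb1 0 and 2, Prdm1 1 and 2, and Jchain 8 and 9. Fcrl5, a receptor that B cells carry as well, had 8 and 16 UMIs, 48.1 and 42.1 CPM against 0.993 and 0.818 elsewhere.

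Against the T cell-like nuclei (8 in WT and 36 in KO) and the myeloid-like nuclei (20 and 10), few genes could be told apart at this depth. Of 65 genes outside the rule, the 10 highest over other nuclei and 3 B cell lists together, 7 had counting intervals above the T cell-like nuclei in both libraries, where 0.827% of all 2539 measured genes did (they were Prkcb, Wdfy4, Pou2f2, Bcl11a, Lyn, Syk and Blnk), and 8 above the myeloid-like nuclei, where 1.02% of the measured genes did (among them Ppp1r16b, Chst3, St6galnac3, Ralgps2, Ets1, Bcl11a and Plcg2). Bcl11a, a transcription factor of B cell development, was in both groups, with 830 and 961 CPM in B cell nuclei, 57.9 and 25.4 in T cell-like nuclei and 0 UMIs in myeloid-like nuclei of either library. St6galnac3 was higher in T cell-like nuclei than in B cell nuclei, with 1738 against 993 CPM in WT and 2020 against 1141 in KO. Dock2 also separated them less: it had 1294 and 1459 in B cell, 753 and 1626 in T cell-like, and 662 and 873 in myeloid-like nuclei. The height of Dock2 over other nuclei was thus shared with other leukocytes. Of the B cell nuclei, 2 in WT and 6 in KO also met the T cell-like gate.

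Between genotypes, most B cell genes stood at similar or somewhat higher levels in KO B cell nuclei. Of 2547 genes with at least 50 UMIs, 167 (6.56%) were more than 2-fold higher in KO and 33 (1.3%) more than 2-fold lower. The minimum sums both libraries, and KO B cell nuclei held more UMIs, so genes high in KO pass it more easily. The share of higher genes among both was 83.5%, with no minimum 64.8%, and with a minimum of 100 UMIs 87.3%. Several genes named below had few WT UMIs and reached the minimum mainly through KO, among them Blk, Fcrl1, Dok3, Cd74, Rel and Ccr6. The median of all measured genes was a log2 ratio of 0.18, so ratios are read against that value. It came to 0.03 when Gm42418 and AY036118 were left out of the totals, and 113 genes were then higher and 48 lower, a share of higher genes of 70.2% instead of 83.5%. Scaling by the median gave 101 higher and 54 lower, 65.2% higher.

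Of the rule genes, which the choice of nuclei touched, Pax5 was at 1119 CPM in WT and 1243 in KO (log2 ratio 0.15, -0.10 to 0.40) and Bank1 at 1215 and 2529 (1.06, 0.84 to 1.28). Ms4a1 had 14 and 84 UMIs, 84.2 and 221 CPM (1.39, 0.57 to 2.32). These 3 values are given with no weight, since nuclei enter by these genes.

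Among the 19 measured identity genes outside the rule, 2 were past 2-fold in KO, 0 lower and 17 between, with a median log2 ratio of 0.45. Of all measured genes 6.56% were past 2-fold higher, and counts of 1 to 3 genes in this list and those below are too small to be set apart from that share. Blk, a Src kinase of B cells, had 54.2 CPM in WT and 145 in KO (log2 1.42, 0.39 to 2.62). Fcrl1, an Fc receptor-like co-receptor, had 72.2 and 161 (1.15, 0.25 to 2.18). Scaled by the median ratio, Fcrl1 was under 2-fold. Cd22 (-0.22, -0.75 to 0.32) and Cd72 (-0.52, -1.33 to 0.32), which both restrain the receptor, did not differ beyond counting error. Ikzf1, encoding Ikaros, lay just under 2-fold with 499 and 961 (0.94, 0.60 to 1.31).

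The receptor signalling genes gave a like picture. Of 18 measured, 3 were past 2-fold higher (Blk, Pik3ap1 and Dok3) and 0 lower, with a median of 0.42. Pik3ap1, the BCAP adaptor that links the receptor to PI3-kinase, had 37 UMIs in WT and 211 in KO, or 223 and 556 CPM (log2 1.32, 0.81 to 1.87). Dok3, an inhibitory adaptor, had 7 and 47 UMIs (1.56, 0.40 to 2.95). Dok3 and Blk reached the minimum of UMIs mainly through KO, where both were high. Their place in the count of higher genes thus partly restates the filter. The adaptor Blnk (0.80, 0.42 to 1.19), Plcg2 (0.77, 0.35 to 1.21) and the phosphatase Inpp5d (0.89, 0.50 to 1.29) had intervals above the overall median, each under 2-fold. The kinases Syk (0.06, -0.37 to 0.52) and Btk (0.17, -0.70 to 1.10) and the PI3-kinase subunit Pik3cd (-0.41, -0.91 to 0.10) did not.

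**Figure D4:**
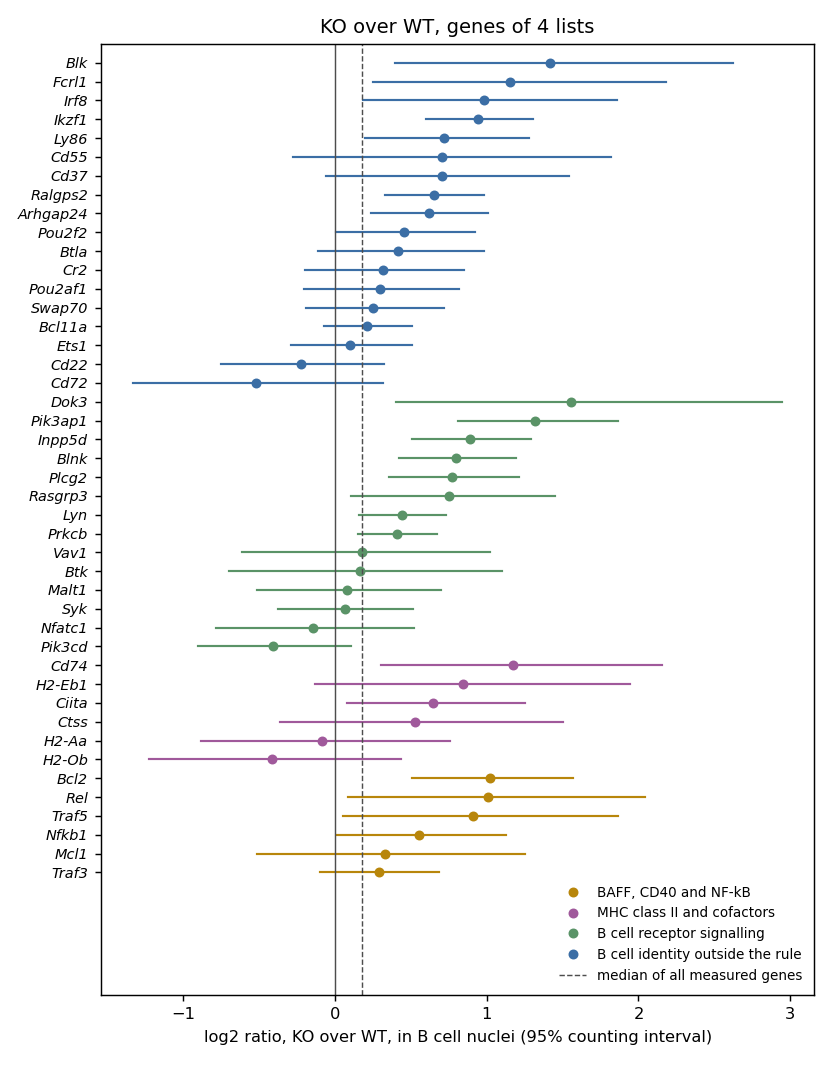
Log2 ratio of KO over WT in B cell nuclei (x axis) for measured genes of 4 lists, points with 95% counting intervals, a solid line at 0 and a dashed line at the median of all measured genes, 0.18. Most points lie right of the dashed line, and Dok3 and Blk have the highest values.

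In antigen presentation, Cd74, the invariant chain, was past 2-fold with 78.2 CPM in WT and 176 in KO (log2 1.17, 0.30 to 2.16), alone among the 6 measured genes. The class II transactivator Ciita had 199 and 311 (0.65, 0.08 to 1.25), whereas the class II chain H2-Aa had 120 and 113 (-0.09, -0.88 to 0.76). Of the BAFF, CD40 and NF-kB list, 2 of 6 were past 2-fold, the survival factor Bcl2 with 229 and 464 (1.02, 0.51 to 1.57) and the NF-kB subunit Rel with 72.2 and 145 (1.00, 0.09 to 2.04). Traf3, a brake on this pathway, had 451 and 551 (0.29, -0.10 to 0.69). Scaled by the median ratio, Cd74, Bcl2 and Rel were each under 2-fold. Of the 4 measured follicular and homing genes, Ccr6, the receptor that leads B cells to the gut follicle dome, was past 2-fold with 8 and 50 UMIs (1.45, 0.36 to 2.74). Ccr6 reached the minimum of 50 UMIs through KO, where it was high, so its place in the count partly restates the filter. The integrin chain Itga4 had 138 and 250 (0.85, 0.19 to 1.58). In 4 other lists no measured gene was past 2-fold in either direction: germinal centre (4 genes, median 0.36), proliferation (7 genes, 0.12), marginal zone and B-1 (3 genes, -0.10) and immunoglobulin constant genes (3 genes, 0.09). Of the 4 measured absorptive markers 1 was past 2-fold higher (Car4) with a median of 0.58, above the medians of the identity and receptor signalling lists, and the part of epithelial RNA in those was not tested. Of the 6 goblet markers 1 was past 2-fold higher (Spink4) and the median was -0.30, which turned to 0.40 after thinning to 1000 UMIs and to 0.38 with nuclei weighted equally. The marginal zone and B-1 median likewise turned to 0.32 after thinning, with 1 gene left, and to 0.31 with a minimum of 20 UMIs. That of the immunoglobulin constant genes turned to -0.30 with a minimum of 20 UMIs and to -0.09 with scaling by the median ratio. That of proliferation turned to -0.11 after thinning, with 1 gene left, and to -0.06 with scaling by the median ratio. Blnk (0.88) and Rel (0.75) also had log2 ratios above 0 in the other nuclei. Over all measured genes, 48 (1.88%) were past 2-fold higher in KO B cell nuclei and lower in the other KO nuclei, with both intervals apart from 0. These ratios compare KO with a WT set that holds more nuclei near the marker limit, a higher ribosomal transcript share and lower depth, and the part of these in the ratios was not tested.

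Hypoxia genes gave little to compare. Hif1a itself had 29 UMIs in WT and 68 in KO B cell nuclei, 174 and 179 CPM (log2 0.04, -0.61 to 0.72), near its level in other nuclei (172 and 199). Of the 14 listed genes it was the one with 50 UMIs. Ncr1, whose promoter drives the Cre, had 0 UMIs in B cell nuclei of both libraries.

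The largest ratios came from single nuclei. The 10 genes highest in KO included Igfbp7, Lrrtm4, Pcdh9, Nlgn1, Gm31243, Kcnq3, Nrg3, Ank2 and Tm4sf20. For 7 of the 10 the same KO nucleus held the most UMIs, the deepest one with 16232 UMIs and 4739 genes. It carried 173 of the 177 Lrrtm4 UMIs and 320 of the 354 Kcnip4 UMIs, neuronal genes, together with 6 Pax5, 13 Bank1 and 20 Ebf1 UMIs. Without it, Lrrtm4 went from a log2 ratio of 4.69 to -0.71 and Ank2 from 2.55 to -0.43. Over all genes, 23 of the 167 higher genes had more than 50% of their KO UMIs in 1 nucleus, and 1 of the 33 lower genes did so in WT.

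Among these genes, Gm31243 was spread over 37 KO nuclei, with 59 UMIs there and 2 in WT (log2 3.69, 1.77 to 6.77). It is an antisense transcript at chr3:135904344-136167184 on the plus strand (GENCODE M21, GRCm38) that overlaps Bank1 (chr3:136053363-136326066, minus strand), and reads from the overlap may not be told apart with certainty. A second selection, made after the values were seen, took genes with at most 25% of their UMIs in any 1 nucleus of either library. Its 10 highest were Tm4sf20, Bmt2, Emid1, Acsl3, Spink4, Wdr37, 5330417C22Rik, Ppargc1a, Car4 and Aacs. All 10 had few WT UMIs, from 4 for Tm4sf20 to 14 for Spink4 and Car4. In KO they had from 45 for Ppargc1a to 115 for Spink4. These genes and Gm31243 thus reached the minimum of UMIs mainly through KO, where they were high. Their place among the highest ratios partly restates the filter. Emid1, with 42.1 and 166 CPM (1.98, 0.85 to 3.35), was lower outside B cell nuclei (10.2 and 6.46). The other 9 had lower levels in WT B cell nuclei than in other WT nuclei. In KO, 4 of them (Tm4sf20, Bmt2, Spink4 and Wdr37) had higher values in B cell nuclei, but not beyond counting error. Spink4, a goblet cell gene, had 84.2 and 303 in B cell nuclei and 211 and 294 elsewhere, and Car4, of surface colonocytes, had 84.2 and 277 against 215 and 355.

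The 10 lowest in KO were Rora, Nrg1, Gm19951, Pde7b, Pcdh7, Prkg1, Tpm1, Lrmda, Gm42418 and Anxa2. All 10 were also lower in the other KO nuclei. Rora had 223 and 42.2 CPM in B cell nuclei and 201 and 51.6 in others. Gm42418 had a log2 ratio of -1.45 in B cell nuclei and -1.53 elsewhere. These 10 genes thus had ratios of the same sign in B cell nuclei and in the rest of the library.

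Germinal centre genes were found in both genotypes. Of 13 such genes, at least 2 were detected in 21 of 85 WT nuclei, 24.7% (15.99 to 35.3), and in 39 of 152 KO nuclei, 25.7% (18.9 to 33.4), called germinal centre-like here. Other nuclei reached this in 2.60% of WT and 4.90% of KO. At 1000 UMIs the shares were 18.8% and 16.1%, with 0.417% and 0.312% elsewhere. The share did not differ between genotypes beyond counting error at either depth. Bcl6, the master factor of the germinal centre, had 28 and 77 UMIs. Bcl6 and Mybl1 are among the 13 genes that chose these nuclei, so their concentration there partly restates the choice. In KO, all 75 UMIs of Mybl1 were in germinal centre-like nuclei, and in WT 20 of 24. The choice by detected genes favours deep nuclei: medians were 1875 and 2484 UMIs, against 1472 and 1855 in the remaining B cell nuclei.

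Genes outside the germinal centre list were then compared between these nuclei and the remaining B cell nuclei. Of 2543 measured genes outside the list, 60 (2.36%) were more than 2-fold higher than in the remaining B cell nuclei in both libraries and 60 (2.36%) lower. The genes named below were picked after their values were seen. Pou2af1, needed for germinal centres, had 530 CPM in germinal centre-like and 162 in remaining WT nuclei, and 705 and 158 in KO. Pdzd2 had 938 and 51.2 in WT and 1162 and 61.8 in KO, and Sox5 1101 and 128 in WT and 979 and 158 in KO. The 3 genes had counting intervals that did not overlap in either library. Bach2, a repressor that holds back plasma cell formation, had 6646 and 1767 in WT and 8471 and 2269 in KO, but as a rule gene it helped to admit these nuclei. Goblet markers moved with the subset in WT through 1 nucleus: their summed level was 7034 CPM in germinal centre-like and 2074 in remaining WT nuclei, and 1463 in the former without the nucleus with the most Muc2 UMIs. In KO it was 2813 and 3030.

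Other genes lay lower in germinal centre-like nuclei, among them Ighd, Zeb2 and Itga4 by more than 2-fold in both libraries. Of the 4 measured follicular and homing genes 2 were past 2-fold lower in both libraries, and 1 of the 3 measured immunoglobulin constant genes was. Of all measured genes outside the list 2.36% were, and the difference was not tested. Ighd, the IgD chain of naive cells, had 20.4 and 128 CPM in WT and 58.1 and 143 in KO, with 1 of 16 WT UMIs and 7 of 44 KO UMIs in germinal centre-like nuclei. Zeb2 had 102 and 632 in WT and 66.4 and 448 in KO. Itga4 had 61.2 and 171, and 141 and 301. Counting intervals overlapped in both libraries for Ighd and in WT for Itga4, and stood apart in both libraries for Zeb2. Foxp1, which is high in naive B cells, had 1488 and 2740, and 2099 and 3717, and Bcl2, which germinal centre B cells are known to lack, 61.2 and 299, and 282 and 548. Ank2, Kcnq3 and Lrrtm4 were also on the low side. In WT they rested on 8, 5 and 3 UMIs, all in remaining nuclei, and in KO mostly on the neuronal-rich nucleus, which was not germinal centre-like.

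**Figure D5:**
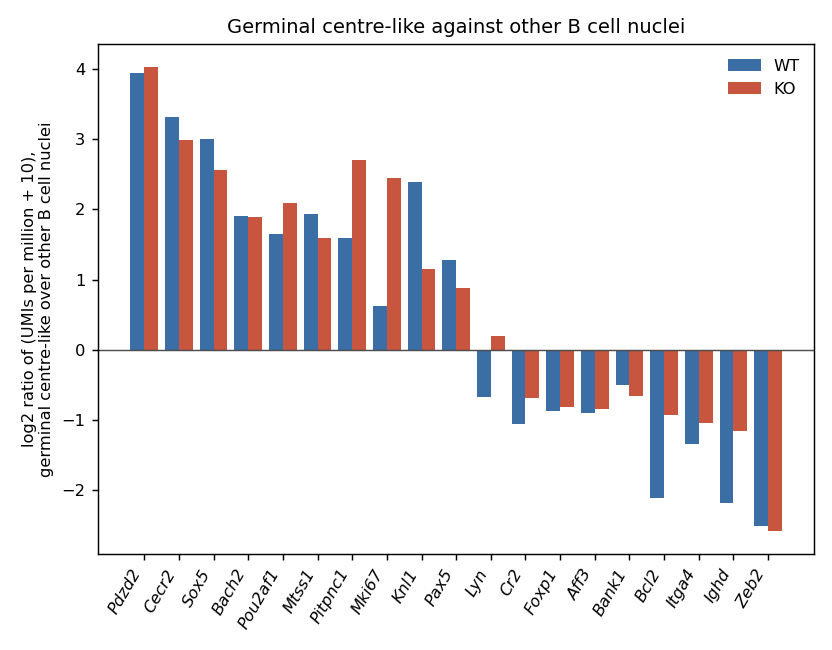
Log2 ratio of CPM plus 10 (y axis) between germinal centre-like and other B cell nuclei, bars for WT and KO, 19 genes picked after their values were seen. Apart from Lyn, each gene has bars on the same side of 0 in both libraries.

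Proliferation genes were looked at in the same way. At least 3 of 16 were detected in 32.9% of WT and 27.0% of KO B cell nuclei, but also in 31.3% and 24.6% of the other nuclei, which include dividing crypt cells, and which were deeper. At 1000 UMIs the shares were 11.8% and 15.4% in B cell nuclei, with 14.2% and 7.26% in other nuclei. The WT share did not differ from that of other nuclei beyond counting error at either depth, and the KO share (10.04 to 22.3) was higher at equal depth. Within B cell nuclei, 13 of 21 germinal centre-like WT nuclei reached it (61.9%, 38.4 to 81.9) against 15 of 64 others (23.4%, 13.8 to 35.7). In KO, 22 of 39 did (56.4%, 39.6 to 72.2) against 19 of 113 (16.8%, 10.4 to 25.01). At 1000 UMIs the pairs were 25% and 8.70% in WT, whose intervals overlap, and 50% and 8.80% in KO, whose intervals do not. Among other nuclei, 60 of 125 germinal centre-like WT nuclei (48%) and 71 of 223 such KO nuclei (31.8%) reached it as well, and at 1000 UMIs 5 of 20 (25%) and 0 of 14. The thinned WT share was 25% inside B cell nuclei (4 of 16, 7.27 to 52.4) and 25% outside (5 of 20, 8.66 to 49.1). In KO it was 12 of 24 inside (29.1 to 70.9) and 0 of 14 outside (up to 23.2%). These counts are small and the differences were not tested. Mki67 had 340 CPM in germinal centre-like KO nuclei and 54.0 in the rest, and in WT 163 and 102.

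Immunoglobulin transcripts were sparse, with fewer than 60 UMIs for each constant gene in either library. Ighm had 23 UMIs in WT and 56 in KO (138 and 148 CPM), in 18 and 36 nuclei. Ighd had 16 and 44 UMIs (96.3 and 116 CPM), in 15 and 33 nuclei, 17.6% and 21.7%, beside 1.10% and 1.01% of other nuclei. Igha was seen in 11 WT nuclei (12.9%, 6.64 to 22.0) and 7 KO nuclei (4.61%, 1.87 to 9.26), with 6.21% and 5.19% of other nuclei. Its intervals overlapped those of other nuclei in both libraries. An Ighg gene was seen in 7 WT nuclei (8.24%) and 6 KO nuclei (3.95%), beside 0.646% and 0.637% elsewhere, with overlapping intervals between the genotypes. At 1000 UMIs, Ighg was in 4 of 85 WT and 0 of 149 KO nuclei (up to 2.01% when 3 counts are taken as the limit, 2.45% by the exact interval), beside 0.271% and 0.156% of other nuclei. This 0 limits detection at 1000 UMIs and not the share of KO nuclei with Ighg, which was seen at full depth. Thinned shares were 10.6% and 12.8% for Ighd, 11.8% and 14.1% for Ighm, and 7.06% and 2.68% for Igha. For Igha, 3.08% and 1.34% of other nuclei reached this, with overlapping intervals in both libraries. All 348 variable genes together gave 2 UMIs in WT and 13 in KO, too few to describe clones.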

How the data were processed

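Nuclei from snap-frozen colon were profiled with the 10x Genomics 3′ v3.1 kit. The deposited matrices hold raw UMI counts per gene and nucleus, which the authors made with Cell Ranger 7.0.1 on mm10 and its default cell calling, as the submitters' processing notes and the methods state; the count setting for strand is not given in the sources used here. They hold 4896 WT and 4772 KO barcodes, which together make the number of nuclei the study states. As in the study, nuclei with 400 to 5000 detected genes and at most 10% mitochondrial UMIs were kept. The upper limit was the only step against doublets, and no doublet caller was run. UMIs were summed over B cell nuclei per library and given as CPM. Counts carry exact Poisson intervals, shares exact Clopper-Pearson intervals, and ratios of levels exact conditional intervals (scipy 1.17.1, numpy 2.4.6, pandas 2.3.3), at 95%, while the ratio of shares of nuclei has a normal approximation on the log scale. Genes needed 50 UMIs over both libraries, and fold limits were 2 and 4, since 1 library per genotype allows no test. Named genes were the rule genes, those of 24 gene lists, Hif1a and Ncr1, the 10 highest over other nuclei, the 10 most abundant, and the 10 highest and lowest KO ratios whose intervals did not overlap. T cell-like, myeloid-like and plasma cell-like nuclei needed 3 markers with a defining one and 0.2% of UMIs, and nuclei that met 2 gates were left out. For equal depth, nuclei were thinned to 1000 UMIs, and 3 shallower KO B cell nuclei were left out. Alternatives changed the rule, the depth, the minimum, the fold, the scaling and the nuclei used. Scripts were tested on simulated data. A few genes are not reported here. Gene positions are from GENCODE M21. The members and lists were chosen with earlier results of these data known.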

Additional observations from a re-analysis of the deposited data

Results flagged for a closer look

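For 16 named genes, the KO to WT ratio in B cell nuclei was past 2-fold upward while that in all other nuclei pointed down, with counting intervals that both excluded 0. Over all 2547 measured genes, 48 (1.88%) showed this. The difference was not tested, as there was 1 library per genotype. The named genes include those with the highest KO ratios, some of them picked after the values were seen. Their count of 16 thus partly restates that choice and is not to be read against the 1.88%. For the first 8, a single KO nucleus per gene held 80.9% to 99.1% of their KO UMIs. Their log2 ratios in B cell nuclei were 4.90 for Igfbp7, 4.69 for Lrrtm4, 4.23 for Pcdh9, 4.04 for Nlgn1, 3.28 for Kcnq3, 2.76 for Nrg3, 2.55 for Ank2 and 1.30 for Kcnip4. The others were spread over many nuclei. They were Emid1 with 1.98, Wdr37 with 1.75, Dok3 with 1.56, Ccr6 with 1.45, Blk with 1.42, Pik3ap1 with 1.32, Fcrl1 with 1.15 and Bank1 with 1.06. Emid1, Wdr37, Dok3, Ccr6, Blk and Fcrl1 had few WT UMIs and reached the minimum of UMIs mainly through KO, where they were high. Emid1 had 7 UMIs in WT and 63 in KO, Wdr37 6 and 46, and Blk 9 and 55. Their place in this set thus partly restates the filter. Pik3ap1 had 37 and 211 UMIs and Bank1 202 and 960. Bank1 is a gene of the rule, which takes its UMIs into the chosen nuclei and out of the others, so its ratios describe the choice. In other nuclei Bank1 had a log2 ratio of -1.10, Pik3ap1 -1.14, Blk -0.98 and Fcrl1 -0.98, so the lower level of these genes outside the chosen KO nuclei moved with these values. Its part in them was not tested.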

How the results depend on the processing

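No paired analysis was possible because each genotype had 1 library. The KO share of B cell nuclei was higher under all 8 alternatives, with log2 ratios from 0.69 to 1.30, the latter without Ebf1 in the rule. Without Ebf1, 57 of the 85 WT nuclei and 135 of the 152 KO nuclei remained, so that the WT set depended more on this gene. The counts of higher and lower genes moved to 56 and 9 after thinning, 602 and 171 with a minimum of 20 UMIs, 55 and 8 with 100 UMIs, 4664 and 2537 with none, 479 and 133 at 1.5-fold, and 101 and 54 with scaling by the median ratio; the cause was not tested beyond the change in genes tested. The lower count was 20 with at least 5 markers and 0.5% of UMIs and 19 without the top nucleus of each gene. Of the 167 higher genes, 28 were also called after thinning. The 134 genes over other nuclei became 71 after thinning, 82 with 100 UMIs and 45 with 50 CPM added. Germinal centre-like shares were 52.9% and 50% with 1 gene fewer, and in KO 18.4% with 1 gene more and 16.1% after thinning. Cycling shares were 56.5% and 48.0% with 1 gene fewer, 11.8% and 15.4% after thinning, and 17.6% in WT with 1 gene more. Myeloid-like KO nuclei were 2 at a gate of 0.3%. Of 12 lists with 3 or more measured genes, 8 had medians above that of all genes, and 8 to 10 did under the alternatives, though not always the same lists. The germinal centre list lay below by -0.095 with equal weights and by -0.026 with stricter markers, while the goblet list lay above by 0.18 after thinning and 0.19 with equal weights.

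Reversals of named genes concerned neuronal genes carried by 1 KO nucleus. Without that nucleus the log2 ratios were -0.43 for Ank2, -2.02 for Kcnip4, -3.45 for Kcnq3, -0.71 for Lrrtm4 and -0.71 for Nrg3. Without the top nucleus of each gene they were -0.076 for Ank2, -1.99 for Kcnip4, -2.78 for Kcnq3, -0.19 for Lrrtm4 and -0.19 for Nrg3. After thinning Ank2 had -0.13 and Kcnip4 -0.28. With at least 5 markers Kcnip4 had -2.09 and Kcnq3 -3.08, and with equal weights Kcnip4 had -0.75. Of 1044 values of 131 named genes, 949 stayed within the counting interval, 80 left it and 15 reversed. The alternatives without 1 nucleus or the top nucleus of each gene, the goblet level without 1 nucleus, and totals without Gm42418 and AY036118 were chosen after seeing the data. Sparse UMIs limit all values for genes under 50 UMIs.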

Other observations

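The 10 most abundant transcripts of B cell nuclei were Gm42418, Malat1, AY036118, Bach2, Ebf1, Gm26917, Cmss1, Camk1d, Gmds and Foxp1. Bach2 (3207 and 4238 CPM in WT and KO) and Ebf1 (2954 and 4220) were the B cell genes among them, with 132 and 102, and 169 and 57.8, in other nuclei. Immediate early genes were sparse: Fos had 8 UMIs in WT and 13 in KO, Jun 1 and 7, and Jund, the one measured of 15 listed, had 120 and 121 CPM. Of 14 cytokine and follicle signal genes, Tgfb1 alone reached 50 UMIs, with 84.2 and 94.8 CPM against 12.5 and 8.96 in other nuclei. Il10 had 0 and 1 UMIs and Il6 0 and 0, which at this depth does not show that they are absent. Of the marginal zone and B-1 list, Cd5 had 0 and 1 and Bhlhe41 0 and 2 UMIs. Among 12 immunoglobulin constant genes, Igkc had 22 and 31 UMIs, 132 and 81.7 CPM (log2 -0.70, -1.53 to 0.16), and Ighg2b 10 and 5 (-2.19, -4.09 to -0.51), the latter under the minimum of 50 UMIs.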
